A study of Homo sapiens with 14 samples.

Results

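The immediate early transcription factors EGR1, EGR2, FOS, FOSB, FOSL1, JUN, JUNB, IER2, MYC and MAFF were examined as a group, taken by gene symbol from tables of gene expression in U2OS, an established human osteosarcoma cell line. All 10 symbols were found, among 22919 symbols held by both deposited tables. The study treated U2OS cells with 9 small molecules, most of them inhibitors of chromatin enzymes, or with the solvent DMSO, and measured mRNA by sequencing. Its title concerns demethylation of histone H3 at lysine 4 and autophagy. DMSO (0.5% by volume, with no time given in its label), 2-PCPA (1 mM, 12 h; tranylcypromine, an inhibitor of the histone demethylase LSD1), GSK343 (10 µM, 24 h; an inhibitor of the methyltransferase EZH2) and rapamycin (5 µM, 24 h; an inhibitor of the kinase mTOR) had 2 replicate libraries each. The other 6 compounds had 1 library each: BIX-01294 (5 µM, 12 h) and BRD4770 (20 µM, 24 h), both inhibitors of the methyltransferase G9a, GSK-J4 (20 µM, 12 h; an inhibitor of lysine 27 demethylases of histone H3), SAHA (1 µM, 24 h) and VPA (20 µM, 24 h), both histone deacetylase inhibitors, and UNC1215 (50 µM, 24 h; a ligand of the methyl-lysine reader L3MBTL3). All libraries came from 1 cell line, and doses and times differed between compounds.

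Immediate early genes are transcribed within minutes of a growth factor, stress or other signal, from factors already present in the cell and with no need for new protein. Signals reach them through MAP kinases, through serum response factor with its ETS partners at CArG boxes, and through CREB at cAMP response elements. EGR1 and EGR2 are zinc finger factors. FOS, FOSB and FOSL1 pair with JUN or JUNB to form AP-1, MAFF is a small MAF protein that binds DNA without an activation domain of its own, IER2 is a nuclear protein, and MYC is a growth regulator that pairs with MAX. Their mRNAs are short-lived, and genes of phosphatases that switch the kinases off again are induced as well.

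Values were the authors' FPKM (fragments scaled to transcript length and to the number of mapped fragments), in 1 table of 10 libraries for replicate 1 and a separate table of 4 libraries for replicate 2. Each treated library was therefore set against the DMSO library of its own table. Absolute depth is unknown, and depth relative to the DMSO library, read from low FPKM values of a table, ran from 0.555 in BIX-01294 to 1.24 in SAHA. The 2-PCPA library of replicate 1 stood apart from the others. Its median log2 difference from DMSO over 12804 genes was -0.43, against -0.06 to 0.06 in the other libraries of that table, and 28% of 375 olfactory receptor genes were above 0 there, against 2.4% to 6.4%. Cell type markers were read in the 10 libraries of the replicate 1 table only. Of 9 osteoblast lineage markers, 3 reached 1 FPKM in DMSO, and SP7 and BGLAP were at 0 in all 10 libraries. Summed blood cell markers stayed at or below 0.79 FPKM and endothelial markers at or below 0.47 FPKM. Epithelial markers summed to between 1.77 and 5.50 FPKM in that table.

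RefSeq promoter sequences (build GRCh38.p14) were given for 8 of the 10 genes, all but FOSL1 and MYC. The bases before the annotated start site are shown for EGR1, FOS and MAFF, the 3 genes furthest above DMSO in the BIX-01294 library. Capitals mark a CArG box or the full cAMP response element TGACGTCA, on either strand.
EGR1, chr5:138465229-138465478, plus strand: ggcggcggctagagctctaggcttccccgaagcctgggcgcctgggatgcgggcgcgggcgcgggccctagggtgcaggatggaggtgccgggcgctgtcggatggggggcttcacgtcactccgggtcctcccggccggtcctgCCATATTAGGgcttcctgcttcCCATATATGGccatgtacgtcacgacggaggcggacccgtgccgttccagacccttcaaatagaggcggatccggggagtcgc
FOS, chr14:75278578-75278827, plus strand: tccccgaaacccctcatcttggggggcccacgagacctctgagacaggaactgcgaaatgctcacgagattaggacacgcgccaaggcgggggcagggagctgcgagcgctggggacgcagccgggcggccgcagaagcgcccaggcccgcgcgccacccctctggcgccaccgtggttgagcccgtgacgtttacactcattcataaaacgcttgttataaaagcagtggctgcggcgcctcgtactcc
MAFF, chr22:38201744-38201993, plus strand: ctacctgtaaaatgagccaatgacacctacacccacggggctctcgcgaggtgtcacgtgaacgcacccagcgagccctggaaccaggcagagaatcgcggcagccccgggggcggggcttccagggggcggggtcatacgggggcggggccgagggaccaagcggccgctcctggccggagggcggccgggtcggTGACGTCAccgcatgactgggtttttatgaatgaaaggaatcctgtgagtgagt
EGR1 held 2 CArG boxes, at positions -105 to -96 and -83 to -74 counted from the start site as 0, and MAFF held TGACGTCA at -54 to -47. Windows of 300 bases (250 before and 50 after the start) were searched in 27305 promoters, the first start listed for each gene. A CArG box was present in 1.29% of them and in 1 of the 8 (EGR1). TGACGTCA was present in 1.98% of them and in 1 of the 8 (MAFF). The AP-1 element TGANTCA was present in 7.76% and in 0 of the 8, the MYC element CACGTG in 7.43% and in MAFF at -196 to -191, and the EGR element GCGNGGGCG in 9.28% and in EGR1 at -198 to -190. These are matches of letters in a fixed window, and each of these elements was found in at most 1 of the 8 genes. Elements more than 250 bases before the start were not looked for, so a gene without a match here may hold one further upstream.

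On the FPKM scale, which divides by transcript length, the 10 genes differed widely in DMSO. In the DMSO library of replicate 1, JUN stood highest at 52.1 FPKM, followed by MYC at 33.4, IER2 at 25.7 and FOSL1 at 17.9 FPKM. JUNB was at 8.78, EGR1 at 6.49 and MAFF at 4.01 FPKM. FOS was at 0.882 and FOSB at 0.0890 FPKM, and EGR2 was listed at 0. In the DMSO library of replicate 2, 9 of the 10 were listed higher and MYC lower, with EGR1 at 15.3 and FOS at 4.52 FPKM, though the tables were made separately. EGR1, FOSB, IER2 and MAFF were lower in DMSO than in each of the other 9 libraries of the replicate 1 table. The plot of levels by library shows this low DMSO point in those 4 genes. Among the 4 replicated groups alone, DMSO was the lowest for 7 of the 10 in replicate 1 and for 9 of the 10, all but JUN, in replicate 2. The share of all genes with DMSO lowest was not computed for any of these counts. FOSB is in each of them and EGR2 in those of the replicated groups, both under 1 FPKM in DMSO. Each comparison with DMSO below shares these DMSO libraries. The single-library values rest on the DMSO library of replicate 1, for which that table has no other. In the replicated fits DMSO could be left out 1 library at a time. For MAFF under rapamycin the log2 fold change was then 1.54 without DMSO of replicate 1 and 2.09 without DMSO of replicate 2, and for EGR1 under rapamycin it was 1.17 and 1.21.

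**Figure D1:**
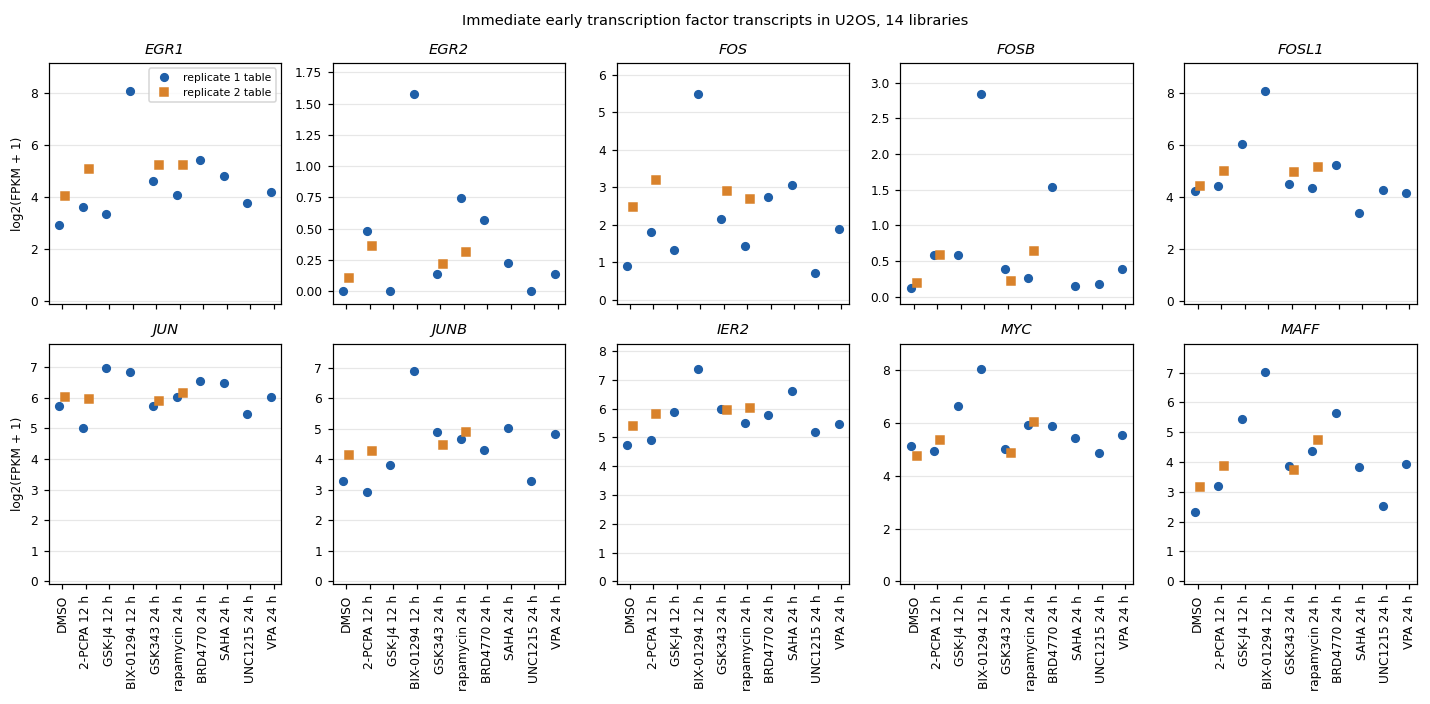
Level of each gene on the log2(FPKM + 1) scale (y axis, its own range for each gene) in 14 libraries, grouped by compound and hours of treatment on the x axis; blue circles are the replicate 1 table, orange squares the replicate 2 table. The BIX-01294 point is the highest in 9 of the 10 panels, and JUN is highest in GSK-J4, at 125 FPKM against 114 FPKM in BIX-01294.

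BIX-01294 at 12 h gave the highest level of 9 of the 10 genes among the 10 libraries of the replicate 1 table. The share of all genes with their highest level in BIX-01294 was not computed. This count includes EGR2 and FOSB, whose means over the other 9 libraries were under 1 FPKM. With 1 library for each compound there is no replicate and no test, and the values describe these libraries. A 2-fold difference here means at least 1 on the log2(FPKM + 1) scale, which understates the change of genes at low FPKM. All 10 were at least 2-fold above DMSO, as were all 8 of those that passed a mean of 1 FPKM without help from this library. Over all 12804 genes whose mean over the 10 libraries, BIX-01294 included, reached 1 FPKM, 9.97% were at least 2-fold higher in BIX-01294 and 6.04% lower. With the filter taken over the other 9 libraries, these shares were 9.51% and 6.16% of 12814 genes. The median of the 8 was 3.71 on the log2 scale, and that of all genes 0.06. In a bulk library, more RNA per cell and more cells that express a gene cannot be told apart. The BIX-01294 library was also the shallowest of its table, and the part of depth in these values was not tested.

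EGR1 had its lowest level at 6.49 FPKM in DMSO, a median of 16.5 FPKM over the 10 libraries and its highest level at 263 FPKM in BIX-01294. That was 40.6 times DMSO, a log2 difference of 5.14, which ranked 13 among the 12804 genes. The next library, BRD4770, was at 41.4 FPKM, so BIX-01294 stood 6.36 times above that library and further above the rest. EGR2, its close relative, was at 1.99 FPKM in BIX-01294 and between 0 and 0.676 FPKM in the other libraries of the table. EGR2 did not pass the filter on low values.

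The FOS family spanned a wide range of levels. FOS was at 44.1 FPKM in BIX-01294, 50.0 times DMSO, with 7.31 FPKM in SAHA next, a median of 2.61 and a lowest level of 0.634 FPKM in UNC1215. FOSB, the paralog with the lowest DMSO level above 0, was at 6.17 FPKM in BIX-01294 and 1.91 FPKM in BRD4770, with the other libraries at or below 0.498 FPKM. FOSB did not pass the filter without the BIX-01294 library, nor without the BRD4770 library. FOSL1, which encodes the AP-1 subunit FRA1, went from 17.9 FPKM in DMSO to 269 FPKM in BIX-01294, a ratio of 15.0. Its next library was GSK-J4 at 64.0 FPKM and its lowest was SAHA at 9.40 FPKM.

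JUNB and JUN gave unlike values. JUNB was at 117 FPKM in BIX-01294, 13.3 times DMSO, with SAHA next at 31.4 FPKM and 2-PCPA lowest at 6.52 FPKM. JUN, the most abundant of the 10 in DMSO, was at 114 FPKM in BIX-01294, 2.18 times DMSO, and at 125 FPKM in GSK-J4. The log2 gap between those libraries, -0.13, was smaller than the SD between replicates of JUN differences from DMSO, 0.28. That SD rests mostly on 2-PCPA, whose replicate 1 library stood apart, with differences of -0.73 and -0.06. They were 0.00 and -0.11 under GSK343 and 0.31 and 0.14 under rapamycin, and an SD without 2-PCPA was not computed. In rank among all genes JUN stood at 1040, and the other 7 of the 8 at 114 or better.

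MAFF, IER2 and MYC were also highest in BIX-01294. MAFF was at 128 FPKM, 32.0 times its DMSO level of 4.01 FPKM, with BRD4770 at 49.4 and GSK-J4 at 42.8 FPKM next. MYC was at 256 FPKM against 33.4 in DMSO, a ratio of 7.66, with GSK-J4 next at 97.9 FPKM. IER2 was at 166 FPKM against 25.7 in DMSO, a ratio of 6.46, with SAHA next at 96.6 FPKM. For 7 of the 10 (EGR1, FOS, FOSB, FOSL1, JUNB, MYC and MAFF) BIX-01294 was at least 2-fold above each of the other 9 libraries on the log2(FPKM + 1) scale, a measure chosen after the values were seen. Of the 8 past the filter without help from BIX-01294 it was 6, beside 2.29% of the 12814 genes past the same filter (2.47% of the 12804 genes past the filter over all 10 libraries). The histogram of BIX-01294 differences places the 10 genes among all genes.

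**Figure D2:**
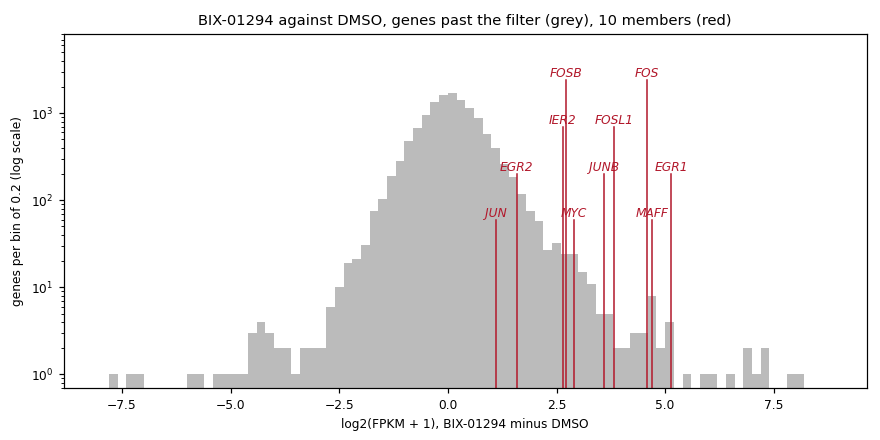
Number of genes (log y axis) in bins of the difference BIX-01294 minus DMSO on the log2(FPKM + 1) scale (x axis), replicate 1 table, 12804 genes in grey; red lines place the 10 immediate early factors, EGR2 among them although it did not pass the filter. The bulk of genes centres near 0.06, JUN stands at 1.11, and EGR1, MAFF and FOS stand at 5.14, 4.69 and 4.58.

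GSK-J4, the other single library at 12 h (at 20 µM against 5 µM of BIX-01294), had MAFF, FOSL1 and MYC furthest above DMSO. The log2 differences from DMSO were 3.13 for MAFF, 1.78 for FOSL1, 1.52 for MYC, 1.25 for JUN and 1.14 for IER2. EGR1, FOS and JUNB were at 0.45, 0.43 and 0.52, and EGR2 was listed at 0 in both libraries. Thus 5 of the 8 were at least 2-fold higher, against 8.92% of all genes, and 0 were 2-fold lower, against 5.96%. In FPKM, EGR1 was 6.49 in DMSO and 9.22 in GSK-J4, and FOSL1 was 17.9 and 64.0.

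BRD4770, which like BIX-01294 is directed at G9a but was given at 20 µM for 24 h, put 4 of the 8 at least 2-fold above DMSO, against 5.94% of all genes. They were MAFF at 3.33, EGR1 at 2.50, FOS at 1.82 and IER2 at 1.04. JUNB lay just under the threshold at 1.00, and FOSL1 at 0.98. None was 2-fold lower, against 4.84% of all genes. FOSB, outside the 8 and below the filter without the BRD4770 library, was at 1.42, with 1.91 FPKM against 0.0890 in DMSO. Side by side, EGR1 was at 263 FPKM in BIX-01294 and 41.4 FPKM in BRD4770, and MYC at 256 and 56.9 FPKM. Dose and time differed between the compounds.

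The histone deacetylase inhibitors SAHA and VPA, both at 24 h and at doses of 1 and 20 µM, are given side by side. SAHA put 5 of the 8 at least 2-fold above DMSO, against 7.79% of all genes, with FOS at 2.14, EGR1 at 1.89, IER2 at 1.87, JUNB at 1.73 and MAFF at 1.50, and 0 were 2-fold lower, against 3.83%. FOSL1 was at -0.86 in SAHA, the lowest value of any of the 10 in the replicate 1 table, 9.40 FPKM against 17.9 in DMSO. VPA put 3 of the 8 at least 2-fold above DMSO and 0 below, against 2.81% and 1.59% of all genes, with MAFF at 1.59, JUNB at 1.53 and EGR1 at 1.27. FOS in VPA was just under at 0.98. FOSL1 in VPA was at -0.09.

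Of the 6 single libraries, UNC1215 had the median nearest 0. In its library 0 of the 8 were at least 2-fold higher, against 1.8% of all genes, and 0 were 2-fold lower, against 1.26%. Its differences ran from -0.26 for MYC to 0.85 for EGR1, with a median of -0.00 over the 8, beside 0.04 for all genes. Counted by direction alone, 5 of the 10 were above DMSO in UNC1215, 9 in each of GSK-J4, SAHA and VPA, and all 10 in BIX-01294 and BRD4770. The share of all genes above DMSO lay between 48.3% and 56% in these 6 libraries. The heat map of differences shows these patterns together.

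**Figure D3:**
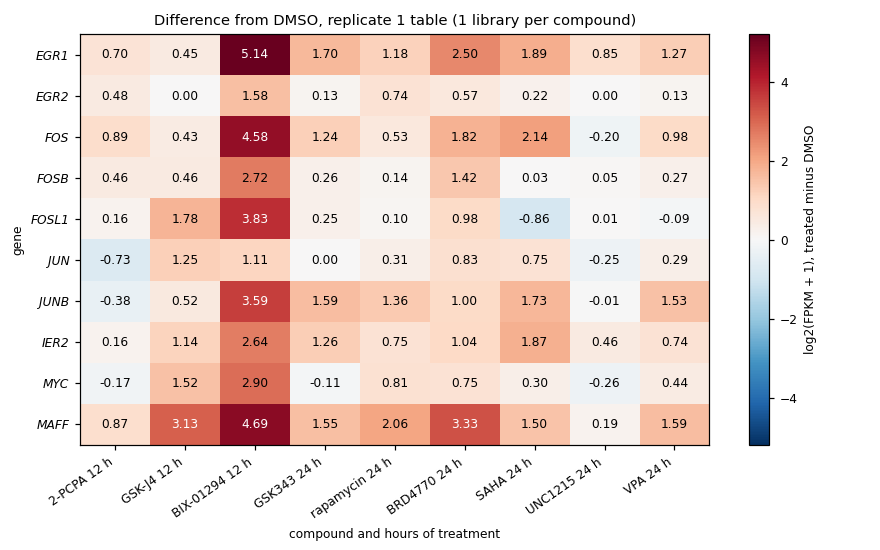
Difference from DMSO on the log2(FPKM + 1) scale for the 10 genes (rows) in the 9 treated libraries of the replicate 1 table (columns, with hours of treatment); red is higher and blue lower than DMSO. BIX-01294 is the darkest column, MAFF is at 3.13 in GSK-J4 and 3.33 in BRD4770, and FOSL1 is at -0.86 in SAHA.

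For 2-PCPA, GSK343 and rapamycin the 2 replicates allowed a test. No label states whether the replicates came from different cultures, and the p-values reflect the spread of these libraries alone, which may be technical. EGR2 and FOSB, with means under 1 FPKM over the 8 libraries, did not enter it, so 8 of the 10 were tested. None was called in any of the comparisons with DMSO by limma at a Benjamini-Hochberg adjusted p of 0.05 over 12603 genes. Few genes of any kind were called, 3 for 2-PCPA (0.00793% of genes higher and 0.0159% lower), 2 for GSK343 (0.00793% each way) and 2 for rapamycin (0% higher and 0.0159% lower). At an unadjusted limma p under 0.05 there were 3, 5 and 5 of the 8, against 7.48%, 4.22% and 6.46% of all genes.

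Rapamycin showed all 8 above DMSO in both replicates, against 25.5% of all genes tested. MAFF, the small MAF factor, was at 4.01 FPKM in DMSO and 19.9 FPKM in rapamycin of replicate 1, with 7.99 and 25.8 FPKM in the other table. The limma log2 fold change of MAFF was 1.82 ± 0.27 (SE), with an adjusted p of 0.152. MYC was at 33.4 FPKM in DMSO against 59.2 FPKM in rapamycin, then at 25.4 against 63.4 FPKM. The log2 fold change of MYC was 1.05 ± 0.25 (SE; limma adjusted p = 0.564). In both genes the treated library was above DMSO in each table.

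EGR1 was at 6.49 FPKM in DMSO and 16.0 FPKM in rapamycin in replicate 1, and at 15.3 and 36.7 FPKM in replicate 2. Its differences in the 2 replicates were 1.18 and 1.20, and its log2 fold change 1.19 ± 0.24 (SE; limma adjusted p = 0.476). JUNB was at 8.78 and 24.1 FPKM, then at 16.6 and 28.5 FPKM, with a log2 fold change of 1.06 ± 0.38 (SE). EGR1, MAFF, MYC and JUNB were the members with a fitted value above 1 under rapamycin. IER2 followed at 0.70, and FOSL1, FOS and JUN were at 0.41, 0.38 and 0.22, the last 3 with intervals that included 0. Leaving out 1 library moved these 3 by more than 1.5 times. FOSL1 was at 0.19 without DMSO replicate 2 and 0.63 without DMSO replicate 1, FOS at 0.59 and 0.17, and JUN at 0.04 without rapamycin replicate 1 and 0.40 without rapamycin replicate 2. The median over the 8 was 0.87, beside -0.05 for all genes.

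GSK343 gave EGR1 the largest fitted value among the 8. EGR1 was at 23.2 FPKM in GSK343 of replicate 1 and 36.6 FPKM in replicate 2, against 6.49 and 15.3 FPKM in DMSO. Its log2 fold change was 1.45 ± 0.24 (SE; limma adjusted p = 0.522). MAFF was at 1.05, JUNB at 0.96, IER2 at 0.91 and FOS at 0.84 in the same fit, and each of these was larger in replicate 1 than in replicate 2. JUNB, for example, differed from DMSO by 1.59 in replicate 1 and by 0.32 in replicate 2. MYC, at 0.00, and JUN, at -0.06, had fitted values near 0, with intervals from -0.57 to 0.57 and from -0.66 to 0.55. In all, 6 of the 8 were above DMSO in both replicates, against 34.6% of all genes, with a median of 0.87 beside 0.03.

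2-PCPA had 5 of the 8 above DMSO in both replicates, against 11.5% of all genes, and 1 (JUN) below, against 42.2%. EGR1 was at 11.1 FPKM in replicate 1 and 32.8 FPKM in replicate 2 (0.87 ± 0.24, SE). FOS was at 2.50 FPKM against 0.882 in DMSO, then at 8.14 against 4.52 FPKM (0.81 ± 0.25, SE), and MAFF at 8.14 against 4.01, then at 13.6 against 7.99 FPKM (0.78 ± 0.27, SE). These 3 had a limma adjusted p of 0.592 each. JUN was at 31.0 FPKM against 52.1 in DMSO in replicate 1, and at 61.0 against 63.7 FPKM in replicate 2. Its log2 difference was thus -0.73 in the 2-PCPA library that stood apart and -0.06 in the other. The median of the 8 was 0.33, beside -0.20 for all genes in this fit. Without the library that stood apart, 2-PCPA was 1 library, and its spread could only be taken from the other groups. The limma log2 fold changes were then 1.13 for EGR1, 0.91 for FOS and 0.94 for MAFF. JUN was at -0.02, and JUNB went from -0.13 to 0.43.

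EGR2 and FOSB, below the filter, were above DMSO in every one of the 6 treated libraries of the replicated compounds. The share of all genes, or of genes at such low levels, with this pattern was not computed. FOSB was at 0.498 and 0.499 FPKM in 2-PCPA, against 0.0890 and 0.139 in DMSO. EGR2 was at 0.397 and 0.286 FPKM in 2-PCPA, against 0 and 0.0771. In 2-PCPA of replicate 1, 28% of olfactory receptor genes were above 0, against 4.27% in DMSO of that table. How much of such background these low values hold was not tested. With no filter on low values the limma log2 fold changes in 2-PCPA were 0.43 for FOSB and 0.37 for EGR2, each with an adjusted p of 0.680.

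**Figure D4:**
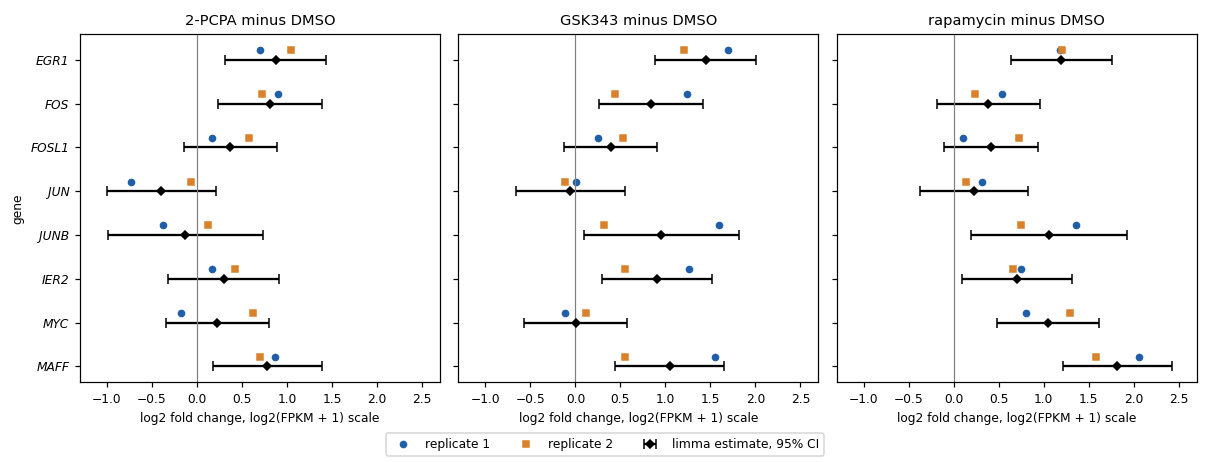
Log2 fold change against DMSO (x axis, log2(FPKM + 1) scale) of the 8 genes tested, for the 3 compounds with 2 replicates; circles and squares are the replicates, diamonds the limma estimates with 95% confidence intervals. Under rapamycin all 8 genes have both replicates above 0, MAFF stands at 1.82, and JUN under 2-PCPA has both replicates below 0.

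The calls for MAFF and EGR1 depended on which rows entered the fit and on how limma moderated the spread. Once 362 rows of small RNAs and clones were removed from the fit, limma called MAFF (adjusted p = 0.000313) and EGR1 (adjusted p = 0.0259) under rapamycin, and EGR1 under GSK343 (adjusted p = 0.00805). Robust moderation called the same 3, and a minimum mean of 5 FPKM called MAFF under rapamycin (adjusted p = 0.0357). Over all alternatives the adjusted p ran from 0.000313 to 1 for MAFF under rapamycin, from 0.0259 to 1 for EGR1 under rapamycin and from 0.00805 to 1 for EGR1 under GSK343. Fold changes were the same in these 3 fits, and the SE of MAFF stayed between 0.25 and 0.27.

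Rapamycin at 24 h and 2-PCPA at 12 h were also fitted against each other, without DMSO in the contrast. None of the 8 was called by limma, against 0.0159% of all genes higher and 0.0317% lower, and 4 of 8 had an unadjusted p under 0.05, against 11.8% of all genes. JUNB was at 24.1 FPKM in rapamycin against 6.52 in 2-PCPA in replicate 1, and at 28.5 against 18.0 FPKM in replicate 2. The fitted value of JUNB was 1.19 ± 0.38 (SE; limma adjusted p = 0.393). MAFF was at 1.04, MYC at 0.82 and JUN at 0.62 in the same contrast, all higher in rapamycin in both replicates. FOS, at -0.43, was lower in rapamycin in both. Of the 8, 6 were higher in both replicates and 1 lower, against 37% and 15.3% of all genes. Without the rows of small RNAs and clones, limma called JUNB (adjusted p = 0.0386; range over alternatives 0.0386 to 1) and MAFF (adjusted p = 0.0376; range 0.0376 to 1). Without the 2-PCPA library that stood apart, which leaves 1 library of 2-PCPA, JUNB was at 0.62, MAFF at 0.87, MYC at 0.54 and JUN at 0.24. The compounds differed in time as well as in target.

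Across the 10 libraries of the replicate 1 table the 10 genes moved together to different degrees. Pearson r of log2(FPKM + 1) over all 45 pairs ran from 0.336 to 0.956, with a median of 0.751, and all 45 were above 0. These values describe 10 libraries that share 1 table and 1 DMSO sample, and BIX-01294 is the highest of them for 9 of the 10 genes. Without that library, an alternative chosen after the values were seen, r ran from -0.243 to 0.86 with a median of 0.443, and 39 of the 45 were above 0. The pair JUN and MYC then had the highest r (0.86), followed by MYC with MAFF (0.84) and EGR1 with FOS (0.837). FOSL1 and JUNB had the lowest r (-0.243), and FOSL1 was also negative with FOS and EGR1 (-0.198 and -0.124).

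The genes most like each member were taken by r over the same 10 libraries, among 8769 genes whose mean reached 5 FPKM. ZBTB11 was most like EGR1 (0.974) and FOS was next (0.956), while EGR1 was most like FOS. PIM3 was most like JUNB (0.987), KDSR most like MYC (0.987), ABL2 most like FOSL1 (0.984) and SDC4 most like JUN (0.967). TBC1D15 was most like FOSB (0.961), with CSRNP1, another immediate early gene, next (0.949). NAB2, which encodes a corepressor of EGR factors, was most like IER2 (0.964). C1orf63 was most like MAFF (0.964), and ATF3, a stress-induced AP-1 family factor, was also among its nearest (0.939). All of these r values include the BIX-01294 library, and likeness without it was computed for the 45 pairs only.

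Genes around the 10 were followed in lists chosen with earlier results of these data known. Among other immediate early genes, 17 of 21 past the filter were at least 2-fold higher in BIX-01294, with a median of 2.10. The genes named here for single libraries were chosen after their values were seen. PPP1R15A, which encodes a phosphatase subunit of the stress response, was at 4.67 in BIX-01294, ARC at 4.41, NR4A1 (an orphan nuclear receptor) at 3.73 and ATF3 at 3.56. Feedback genes of the MAP kinase pathway were 2-fold higher in 7 of 8, among them the phosphatase genes DUSP2 at 5.10 and DUSP5 at 4.93 and the inhibitor gene SPRY2 at 4.24. The kinases and growth factor receptors upstream were 2-fold higher in 3 and lower in 1 of 20, with a median of 0.15. These counts stand beside the 9.97% of all genes 2-fold higher and 6.04% lower in BIX-01294.

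Serum response and CREB factors were 2-fold higher in 5 of 14 in BIX-01294, with the EGR corepressors NAB2 at 2.86 and NAB1 at 2.32, while SRF itself was at 0.96. Dimer partners of AP-1 and the small MAF proteins were 2-fold higher in 5 of 12, with BACH1, a partner of small MAFs, at 2.06 and MAFK at 1.85. In the MYC network, 3 of 10 were 2-fold higher and 2 lower, with MNT, a MYC antagonist that also pairs with MAX, at 1.95 and MAX at 1.12. Of 14 MYC target genes, 1 was 2-fold higher in BIX-01294, with a median of 0.30. In BIX-01294 9.97% of all genes were 2-fold higher and 6.04% lower.

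Target genes of AP-1 include proteases, their inhibitors and growth factors. They were 2-fold higher in 8 of 12 in GSK-J4, 8 of 12 in BRD4770 and 5 of 12 in BIX-01294, and in SAHA 2 were higher and 2 lower. MMP10, a protease gene, passed the filter through the GSK-J4 library alone. With the filter taken over the other 9 libraries, a choice made after the data were seen, the counts were 7 of 11 in GSK-J4, 8 of 12 in BRD4770 and 5 of 13 in BIX-01294. MMP3, a matrix protease gene, was at 2.99 in GSK-J4, 1.28 in BRD4770, 2.53 in BIX-01294 and -2.14 in SAHA. VEGFA, a growth factor for vessels, was at 2.92 in GSK-J4, 2.02 in BRD4770 and 1.39 in BIX-01294. VPA had 0 of 12 and UNC1215 0 of 12 at least 2-fold higher. Over all 12804 genes, 8.92% were higher in GSK-J4, 5.94% in BRD4770, 9.97% in BIX-01294, 2.81% in VPA and 1.8% in UNC1215, and in SAHA 7.79% were higher and 3.83% lower. With the filter over the other 9 libraries, 8.5% were higher in GSK-J4 and 5.6% in BRD4770. The bar chart of list shares shows each list with these background shares.

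**Figure D5:**
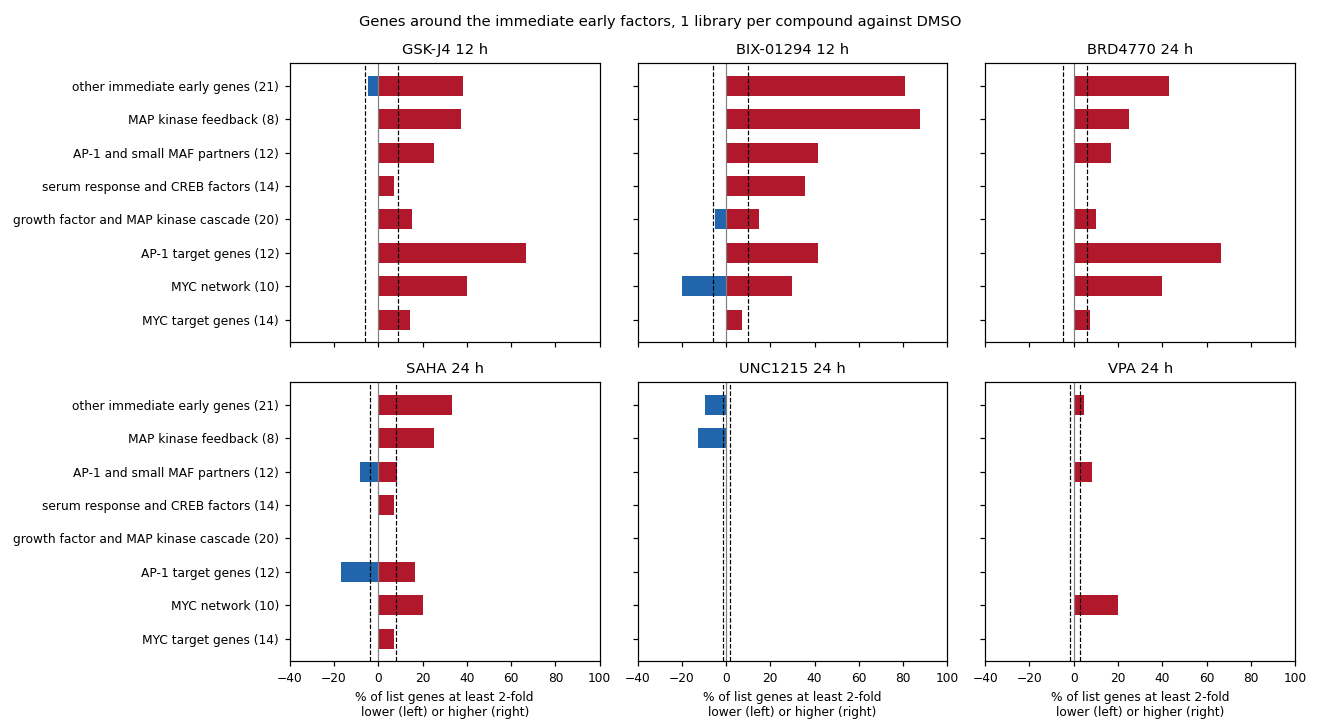
Share of each list's genes (number past the filter in brackets) at least 2-fold higher (red, to the right) or lower (blue, to the left) than DMSO on the log2(FPKM + 1) scale, 1 library per compound; dashed lines are the shares over all 12804 genes. In BIX-01294 the bars for other immediate early genes (17 of 21) and MAP kinase feedback (7 of 8) are the longest, and in GSK-J4 and BRD4770 the bar for AP-1 target genes (8 of 12).

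In the replicated comparisons 0 genes of any of these lists were called by limma, and the values are given by direction in both replicates. Under rapamycin, 13 of 21 other immediate early genes were higher and 2 lower in both, with CTGF at 1.77 ± 0.35, KLF2 at 1.27 ± 0.34, PPP1R15A at 1.06 ± 0.21 and CYR61 at 1.05 ± 0.31 (SE). AP-1 target genes were higher in both replicates in 8 of 10 and lower in 1, with MMP3 at 1.69 ± 0.38 and HMGA1 at 1.01 ± 0.26 (SE). MYC target genes were higher in 1 and lower in 10 of 14, with LDHA at -0.77 ± 0.24 (SE), while MYC was at 1.05. These are RNA values, and any link between MYC and the genes of this list was not tested. Over all genes under rapamycin, 25.5% were higher and 37.1% lower in both replicates. The MAP kinase cascade had 1 of 20 higher, with the receptor gene EGFR at 0.97 ± 0.22 (SE), and 13 lower.

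Under GSK343, other immediate early genes were higher in both replicates in 11 of 21 and lower in 2, with PHLDA1 at 0.91 ± 0.32 and PPP1R15A at 0.83 ± 0.21 (SE). AP-1 and small MAF partners were higher in 8 of 12, with JUND, a further JUN gene, at 0.94 ± 0.36 (SE), and NAB2 was at 1.02 ± 0.26 (SE). MYC target genes were lower in 9 of 14 and higher in 2, against 26.7% and 34.6% of all genes. Under 2-PCPA the same list of other immediate early genes had 4 higher and 5 lower of 21, with KLF2 at -1.21 ± 0.34 and PHLDA1 at 1.00 ± 0.32 (SE). MYC target genes were lower in 8 of 14 and higher in 0 under 2-PCPA, against 42.2% and 11.5% of all genes.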

How the data were processed

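FPKM, the only unit used, was deposited by the authors as 1 value per gene and library. Per the submitters' processing notes, FastQC, cutadapt and TopHat2 (no versions) and the hg19 build were used; what computed FPKM, and from which annotation, is not given in the sources used here. Libraries came from mRNA with a ThruPLEX kit, per the labels' protocols, and strand is not stated, so reads of overlapping and antisense genes cannot be told apart. Replicate 1 held 28502 rows for 10 libraries and replicate 2 held 25209 rows for 4. A row with no gene name, 1 in all, was left out.

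Values were tested as log2(FPKM + 1) with limma 3.58.1 in R 4.3.3. All 8 libraries of the replicated groups entered 1 fit with the replicate number, which is also the table, as a block. limma moderated the spread along an intensity trend, with 5.42 prior degrees of freedom beside 3 residual ones, and p-values were adjusted by Benjamini-Hochberg over 12603 genes whose mean reached 1 FPKM. As a check of the block, deviations from group means of libraries with the same number correlated at 0.710 to 0.784 over 6 pairs. SEs of log2 fold changes had a median of 0.25. The 6 compounds with 1 library were compared with DMSO of the replicate 1 table over 12804 genes, at 2-fold and with no test. The fit was tested on simulated data.

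All 10 immediate early factors were named, with up to 4 genes of each other list per tested comparison (the largest changes with the same sign in each replicate; some are left out for length) and the 3 genes most like each factor, of which the first and a few others are given. The genes and lists were chosen with earlier results of these data known. Alternatives varied the pseudocount (0.1 and 5), the filter, the scaling, the rows, the block, the moderation and the libraries. Plots used matplotlib 3.10.9.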

Additional observations from a re-analysis of the deposited data

How the results depend on the processing

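Absolute depth is unknown, 6 compounds had 1 library, and the replicated groups had 2. Large differences as well as small ones could thus go uncalled. MAFF under rapamycin, at 1.82, had a limma adjusted p of 0.152, and EGR1 under GSK343, at 1.45, had 0.522. A lack of calls is therefore no evidence of a lack of change. None of the 8 immediate early factors tested by limma was called when any 1 library was left out, where a lone library is assumed to vary like the other groups, or without the replicate block, which left 1, 0, 0 and 1 genes called for 2-PCPA, GSK343, rapamycin and rapamycin minus 2-PCPA. As 0 factors were called with the block, the count of calls could not fall without it and does not show how much the block matters. Without the block the SE of EGR1 went from 0.24 to 0.67, that of FOS from 0.25 to 0.75 and that of MYC from 0.25 to 0.23. Factors at an unadjusted limma p under 0.05 went from 3, 5, 5 and 4 to 0, 1, 2 and 2 in the same order.

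The number of genes called over all genes moved more, from 3, 2, 2 and 6 in the same order. It was 0, 0 and 0 for the comparisons with DMSO at a pseudocount of 0.1, 1, 1 and 0 at a pseudocount of 5, and 0 in all 4 with no filter. A mean of at least 5 FPKM gave 1 for GSK343, 4 for rapamycin and 32 for rapamycin minus 2-PCPA. Median centring gave 0, 5 and 22, and quantile normalization 0, 0 and 14, for the same 3. Leaving out small RNA and clone rows gave 38, 47, 68 and 216, and robust moderation 16, 18, 26 and 84. A fit of only the groups compared gave 272, 0, 0 and 389. TPM scaling, added after the data were seen, gave 1 for GSK343 and 50 for rapamycin minus 2-PCPA, and moderation without trend gave 1 for rapamycin. Leaving out 1 library at a time gave 2 to 47, 0 to 44, 0 to 42 and 1 to 49, the highest without 2-PCPA replicate 1 for the contrasts with 2-PCPA and without DMSO replicate 1 for GSK343 and rapamycin. Apart from fewer rows or libraries, the cause was not tested.

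Of the 8 factors, leaving out small RNA and clone rows called 1 under GSK343, 2 under rapamycin and 2 in rapamycin minus 2-PCPA, robust moderation called 1 and 2 in the first of these, and a mean of at least 5 FPKM called 1 under rapamycin. Over all genes, the rows left out gave 0.384%, 0.556% and 1.76% called in that order, robust moderation 0.143% and 0.206%, and the higher minimum 0.0449%. In the single libraries, a pseudocount of 5 left 2 factors at least 2-fold higher in BRD4770 in place of 4, against 2.12% of all genes. EGR1 in VPA also fell below 2-fold at that pseudocount, where 0.625% of all genes were at least 2-fold higher in VPA. TPM scaling put 1 factor 2-fold lower in SAHA in place of 0, against 6.09% of all genes. Smaller moves of such counts are not all listed. A filter over the 9 libraries other than the treated one, added after the data were seen, changed none of these counts of factors.

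Values near 0 changed sign. JUNB under 2-PCPA went from -0.13 to 0.0706 with median centring, 0.0767 with quantile normalization and 0.18 with TPM scaling, where the median of all genes under 2-PCPA was -0.20 as deposited. MYC under GSK343 went from 0.00 to -0.0438, -0.0260 and -0.10, and FOSL1 in rapamycin minus 2-PCPA from 0.05 to -0.11, -0.15 and -0.35. EGR1 in rapamycin minus 2-PCPA was -0.0590 with TPM scaling. With 1 library left out, JUN under GSK343 ran from -0.20 to 0.0833, JUNB under 2-PCPA from -0.69 to 0.43, MYC under 2-PCPA from -0.0561 to 0.50, MYC under GSK343 from -0.25 to 0.25 and FOSL1 in rapamycin minus 2-PCPA from -0.15 to 0.24.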
